A study of Homo sapiens with 8 samples.

Results

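The distal part of the short arm of chromosome 1, 1p36, was taken here as all peaks on chromosome 1 whose midpoint lies between 2000000 and 28000000 in GRCh37. The 8 peak lists together held 7253 such peaks, of 711243 peaks on all chromosomes and 702011 on the autosomes. The borders are positions and use no peak value. Methylated DNA had been captured with a methyl-CpG binding domain and sequenced (MBD-seq) in 8 neuroblastoma (NB) cell lines, which are established cultures of tumor cells. In 4 of them, N206, LAN-2, IMR-32 and CHP-902R, the *MYCN* oncogene is amplified (MNA). The other 4, SK-N-AS, SJNB-1, SH-SY5Y and CLB-GA, carry *MYCN* as a single copy. All are untreated human cultures. There is 1 sample of each line, and the replicates of a group are its lines. The labels give no other genotype, and the number of copies of 1p in these lines was not given in the sources used here, so that loss of the region and absence of methylation cannot be told apart in a peak list.

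Loss of distal 1p is a classical lesion of NB, often found together with *MYCN* amplification, and the region has long been searched for tumor suppressor genes. Promoter CpG islands of an active gene are as a rule unmethylated, and methylation of such an island goes with a silent gene. MBD capture pulls down fragments that hold several methylated CpGs, so a peak needs both methylation and CpGs, and a stretch present in fewer copies yields fewer fragments. 1p36 is gene-rich and CpG-rich. The 26 Mb held 432745 CpGs, which is 1.69 CpG per 100 bp against 0.927 in the rest of chromosome 1 and 0.997 over the autosomes. The region therefore made up 0.952% of the autosomal bases and 1.62% of the autosomal CpGs.

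A few stretches show what a peak of this region looks like at the level of the bases. The first is a CpG-dense stretch covered in all 8 lines, in an exon of *TENT5B*. The second, in an intron of *CAMTA1*, is the only region of 1p36 that had a peak in the 4 MNA lines alone. The third, at an exon of *ECE1*, is the only one that had a peak in the 4 single copy lines alone. The last is from the peak that 6 lines shared near the start of *SFN*, and it lies past the transcription start. Each is given on the + strand of GRCh37 with every CpG in capitals, as the window of 300 bases with most CpGs inside the stretch that the lines had in common and outside untranslated exon parts.
*TENT5B*, chr1:27332616-27332915: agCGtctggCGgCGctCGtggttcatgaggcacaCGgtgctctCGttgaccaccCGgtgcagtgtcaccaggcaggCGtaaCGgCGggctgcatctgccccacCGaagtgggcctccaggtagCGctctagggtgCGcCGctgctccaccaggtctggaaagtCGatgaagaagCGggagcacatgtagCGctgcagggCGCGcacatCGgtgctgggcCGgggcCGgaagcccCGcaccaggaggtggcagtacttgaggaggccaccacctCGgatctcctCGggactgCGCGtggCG
*CAMTA1*, chr1:6924639-6924938: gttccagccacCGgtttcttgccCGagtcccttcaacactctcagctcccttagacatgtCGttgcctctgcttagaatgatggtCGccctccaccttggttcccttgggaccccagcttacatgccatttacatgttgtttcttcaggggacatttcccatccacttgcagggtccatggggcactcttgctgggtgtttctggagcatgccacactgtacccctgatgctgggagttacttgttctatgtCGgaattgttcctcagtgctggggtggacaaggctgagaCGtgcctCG
*ECE1*, chr1:21585157-21585456: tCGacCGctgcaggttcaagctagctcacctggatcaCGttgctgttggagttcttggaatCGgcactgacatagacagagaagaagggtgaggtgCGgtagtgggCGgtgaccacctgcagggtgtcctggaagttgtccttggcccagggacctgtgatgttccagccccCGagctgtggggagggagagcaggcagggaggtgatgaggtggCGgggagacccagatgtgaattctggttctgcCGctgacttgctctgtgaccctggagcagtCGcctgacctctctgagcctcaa
*SFN*, chr1:27189847-27190146: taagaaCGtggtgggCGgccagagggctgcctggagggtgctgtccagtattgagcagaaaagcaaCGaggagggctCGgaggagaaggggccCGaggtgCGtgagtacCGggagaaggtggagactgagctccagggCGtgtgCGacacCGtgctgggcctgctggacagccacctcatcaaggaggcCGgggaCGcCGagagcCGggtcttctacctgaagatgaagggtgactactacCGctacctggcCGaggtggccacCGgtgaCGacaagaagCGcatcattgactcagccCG
The *TENT5B* window held 28 CpGs and the *SFN* window 20. The *ECE1* window held 10 and the *CAMTA1* window 7.

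The first question was how much of each list lay in 1p36. Among the MNA lines, CHP-902R had 688 peaks in the region, IMR-32 609, LAN-2 1186 and N206 1224. Among the single copy lines, SH-SY5Y had 1312, SK-N-AS 995, CLB-GA 706 and SJNB-1 533. As a share of the autosomal peaks of the line this was, from low to high, 0.693% in IMR-32, 0.710% in CHP-902R, 0.760% in SJNB-1, 0.916% in CLB-GA, 1.08% in LAN-2, 1.17% in SK-N-AS, 1.34% in N206 and 1.57% in SH-SY5Y. Every line stayed below the 1.62% of autosomal CpGs that the region holds, and 4 lines (CHP-902R, IMR-32, CLB-GA and SJNB-1) also stayed below its share of the bases. Covered length was smallest in SJNB-1, at 297 kb, and largest in SH-SY5Y, at 917 kb, the lines with the fewest and the most peaks. The share of the autosomal cover ran from 0.683% in CHP-902R to 1.77% in SH-SY5Y, and SH-SY5Y was the only line above the CpG share on this measure.

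**Figure D1:**
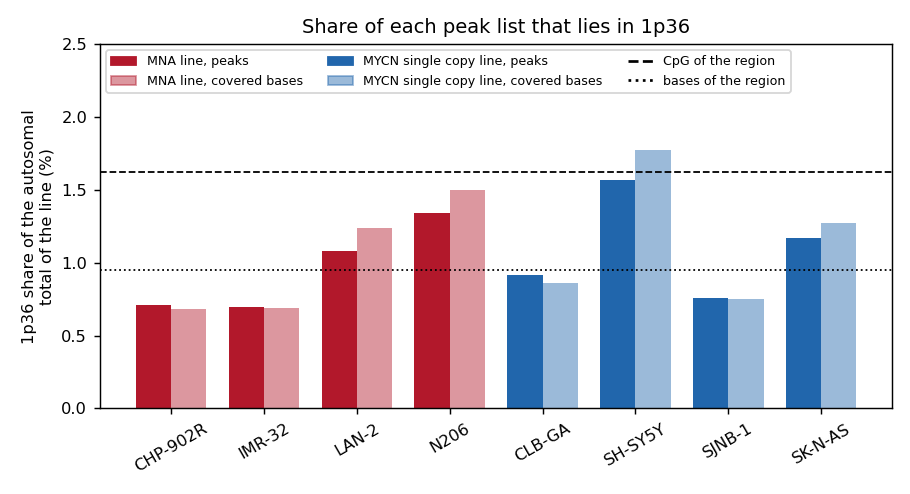
Share of the autosomal peaks (dark bars) and of the autosomal bases covered by peaks (light bars) that lies in 1p36, in percent, for each cell line (red MNA, blue MYCN single copy). The broken line marks the share of autosomal CpGs in the region (1.62%) and the dotted line its share of bases (0.952%); each group holds both low lines and lines above the dotted line.

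The *MYCN* groups did not separate on these shares. The MNA lines had 0.955% ± 0.312 of their autosomal peaks in 1p36 (SD, n = 4). For the single copy lines it was 1.10% ± 0.352 (SD, n = 4), and an exact permutation test, two-sided as all tests here, gave p = 0.514 (adjusted p = 0.876 over the 4 group tests made). The shares of cover were 1.03% ± 0.409 and 1.16% ± 0.462 (SD, n = 4 each, exact permutation p = 0.657, adjusted 0.876). The spread within a group was larger than the difference between them. Such a test of 4 against 4 lines cannot give a p below 0.0286.

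Set against the rest of its own chromosome, 1p36 had fewer peaks for the CpGs it holds in all 8 lines. Per 1000 CpG, CHP-902R had 1.59 peaks in 1p36 and 3.94 in the rest of chromosome 1, IMR-32 1.41 and 6.02, LAN-2 2.74 and 9.05, and N206 2.83 and 5.28. CLB-GA had 1.63 and 3.30, SH-SY5Y 3.03 and 4.72, SJNB-1 1.23 and 3.98, and SK-N-AS 2.30 and 4.80. As a ratio, the region was closest to the rest in SH-SY5Y, at 0.643 times its rate, and farthest from it in IMR-32, at 0.234 times. The mean log2 ratio was -1.30 ± 0.49 (SD, n = 8), a 2.47-fold lower rate, with p = 0.00781 in a two-sided exact sign-flip permutation test over the lines, the smallest p that 8 lines allow, and an adjusted p of 0.0125 over the 8 paired tests. The direction and the call held in 8 of 8 lines when the comparison was made with the rest of the short arm (mean log2 ratio -0.98) or of the autosomes (-0.72). They also held against 377 autosomal 1 Mb bins whose CpG density lies between the 10th and 90th percentile of the bins of 1p36 (1.33 to 2.18 CpG per 100 bp), a comparison chosen after seeing the data, with a mean log2 ratio of -0.77. The deficit per CpG was not shown to differ between the *MYCN* groups, at a mean log2 ratio of -1.51 ± 0.52 for MNA and -1.10 ± 0.44 for single copy (SD over 4 lines each, exact permutation p = 0.286, adjusted 0.876).

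Per length the picture was less uniform, and it depended on what the region was compared with. The region had 20.9 to 51.4 peaks per Mb, from SJNB-1 to SH-SY5Y, and the rest of chromosome 1 had 30.6 (CLB-GA) to 83.9 (LAN-2). The region was lower in 7 of 8 lines, and SH-SY5Y was the exception with 51.4 against 43.7. The mean log2 ratio was -0.44 ± 0.49 (SD, n = 8; exact sign-flip permutation p = 0.0547, adjusted 0.0625), which did not pass. Without SH-SY5Y, the only line above 0, it was -0.53 (exact permutation p = 0.0156). That p is the smallest that 7 lines allow, and it was fixed by leaving out this line. Against the rest of the autosomes the sign turned, with a mean log2 ratio of 0.06 (exact permutation p = 0.734), and against the rest of the short arm it was -0.03 (p = 0.891, exact permutation). Cover behaved alike: 1.16% to 3.59% of the bases of 1p36 and 1.44% to 4.51% of the rest of chromosome 1 lay in peaks, with a mean log2 ratio of -0.30 ± 0.54 (SD, n = 8; exact sign-flip permutation p = 0.156). N206 and SH-SY5Y had the larger cover inside the region.

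To place the region among stretches of its own length, the autosomes were cut into 90 other windows of 26 Mb. In SJNB-1 none of the 90 windows had fewer peaks per CpG than 1p36. In IMR-32 there were 2 such windows, in CHP-902R 3, in CLB-GA 5, in SK-N-AS 15, in LAN-2 19 and in N206 23. In SH-SY5Y 51 of the 90 windows were lower, so that 1p36 lay near the middle in this line only. This is a description, with no test.

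The peaks that were called in 1p36 lay on denser sequence than those of the rest of the chromosome. The median peak of the region had 2.56 (SK-N-AS) to 3.27 (CLB-GA) CpG per 100 bp, and the median peak of the rest of chromosome 1 had 2.34 (SK-N-AS) to 3.08 (CLB-GA). The region was higher in 8 of 8 lines, by 0.330 ± 0.139 CpG per 100 bp (SD, n = 8; exact sign-flip permutation p = 0.00781, adjusted 0.0125). SJNB-1 had the largest difference, 3.18 against 2.57. Peaks with 5 or more CpG per 100 bp, the density of CpG islands, made up 5.56% (SH-SY5Y) to 13.7% (SJNB-1) of the peaks in 1p36, more than in the rest of chromosome 1 in each line. Peaks with fewer than 2 CpG per 100 bp made up 3.97% (CLB-GA) to 22.7% (N206), less than in the rest in each line. The region as a whole is denser in CpG than the rest of the chromosome, and this was not taken out of the comparison. The *MYCN* groups were close on this measure, with an excess of 0.338 ± 0.085 CpG per 100 bp for MNA and 0.323 ± 0.195 for single copy (SD over 4 lines each, exact permutation p = 0.943, adjusted 0.943).

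The peaks of 1p36 were also wider and had lower scores. Mean width was 484 bp (CLB-GA) to 699 bp (SH-SY5Y) in the region and 470 bp (CLB-GA) to 610 bp (IMR-32) in the rest of chromosome 1, and the region was wider in 8 of 8 lines, by 53.5 ± 39.3 bp (SD, n = 8; exact sign-flip permutation p = 0.00781, adjusted 0.0125). Against the rest of the autosomes the difference was 27.8 bp and did not pass (exact permutation p = 0.156). The score of a peak rises as its p-value from the peak caller falls, depends on the depth of the list and is compared here only within a list. Peaks with a score of at least 100 made up 6.40% of the region in CHP-902R against 16.4% of the rest of chromosome 1, 8.05% against 20.8% in IMR-32, 14.9% against 31.7% in LAN-2 and 12.3% against 16.4% in N206. They made up 7.22% against 18.4% in CLB-GA, 11.2% against 20.5% in SH-SY5Y, 9.38% against 12.7% in SJNB-1 and 8.04% against 13.2% in SK-N-AS. The share was lower in 8 of 8 lines, with a mean difference of -9.06 ± 4.63 percentage points (SD, n = 8; exact sign-flip permutation p = 0.00781, adjusted 0.0125). Ranked within its list, the median peak of 1p36 stood above 33.2% (IMR-32) to 44.3% (N206) of all peaks of the line.

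**Figure D2:**
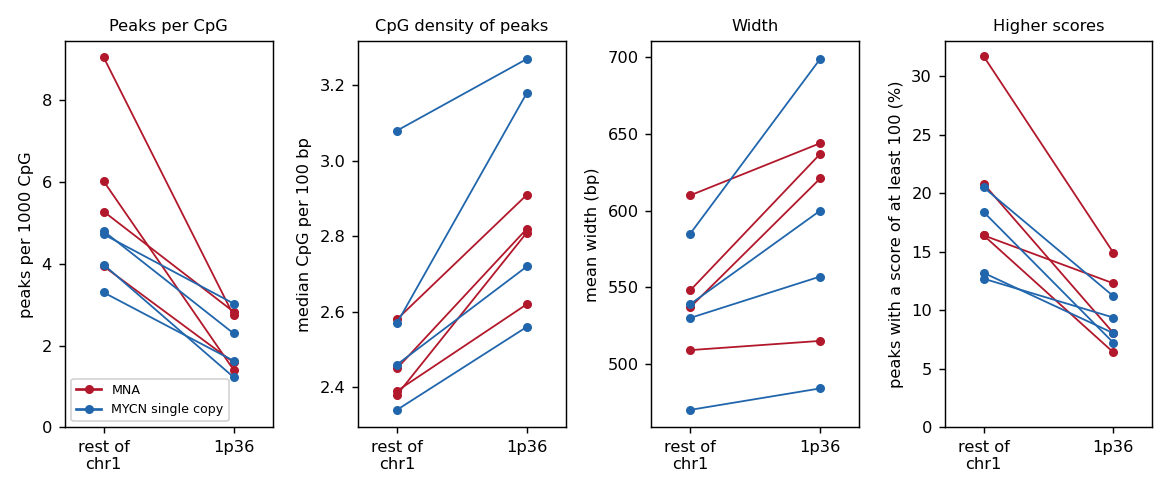
Values of the rest of chromosome 1 (left) and of 1p36 (right) joined for each cell line (red MNA, blue MYCN single copy): peaks per 1000 CpG, median CpG per 100 bp of the peaks, mean peak width in bp and percent of peaks with a score of at least 100. All 8 lines fall in the first and last panel and rise in the 2 middle ones, whose axes do not start at 0.

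The level was not even along the region, and the lines changed at different places. In the 13 Mb from 2 to 15 Mb, IMR-32 had 0.891 peaks per 1000 CpG and SJNB-1 1.08, while N206 had 2.25 and SH-SY5Y 2.51. From 15 to 25 Mb, SK-N-AS had 3.37 peaks per 1000 CpG after 1.25 in the first stretch, LAN-2 3.35 after 2.08, and IMR-32 1.29. In SK-N-AS the 9 bins of 1 Mb from 2 to 11 Mb held 9 to 28 peaks, those from 11 to 13 Mb 43 and 40, and the 13 bins from 15 Mb on 31 to 65. From 25 to 28 Mb, IMR-32 had 4.12. The last 3 Mb thus held 33.8% of the 609 peaks of IMR-32, against 13.2% (CHP-902R) to 18.7% (SK-N-AS) in the other lines. As a ratio to the rate of all autosomes of the line, IMR-32 moved from 0.271 and 0.392 to 1.26, and SK-N-AS from 0.394 to 1.06 and 1.17. CHP-902R, CLB-GA and SJNB-1 stayed between 0.389 and 0.681 in all 3 stretches. These borders were chosen after the values were seen.

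Just past the region the lines came closer, with CHP-902R as the exception. From 28 to 60 Mb the ratio to the autosomal rate was 1.30 (SK-N-AS) to 1.59 (LAN-2) in 7 lines and 0.445 in CHP-902R. CLB-GA and SJNB-1 moved from 0.681 and 0.558 in the last stretch of the region to 1.54 and 1.41 beyond it. In CHP-902R the rest of the short arm had 1.76 peaks per 1000 CpG, near its 1.59 in 1p36, and its long arm had 5.90. Its region thus reached 0.901 times the rate of the rest of the short arm, and that of SH-SY5Y 0.905 times. In the other 6 lines this ratio was 0.257 (IMR-32) to 0.614 (N206). CHP-902R was therefore the line that stood apart along the arm. Without CHP-902R the mean log2 ratio to the rest of chromosome 1 per CpG was -1.30, the same as with all lines. Leaving out any other line gave -1.40 to -1.19. At the borders themselves, the bin from 1 to 2 Mb held 29 to 68 peaks and that from 2 to 3 Mb 17 to 45. The bin from 27 to 28 Mb held 31 to 87 and that from 28 to 29 Mb 36 to 80.

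**Figure D3:**
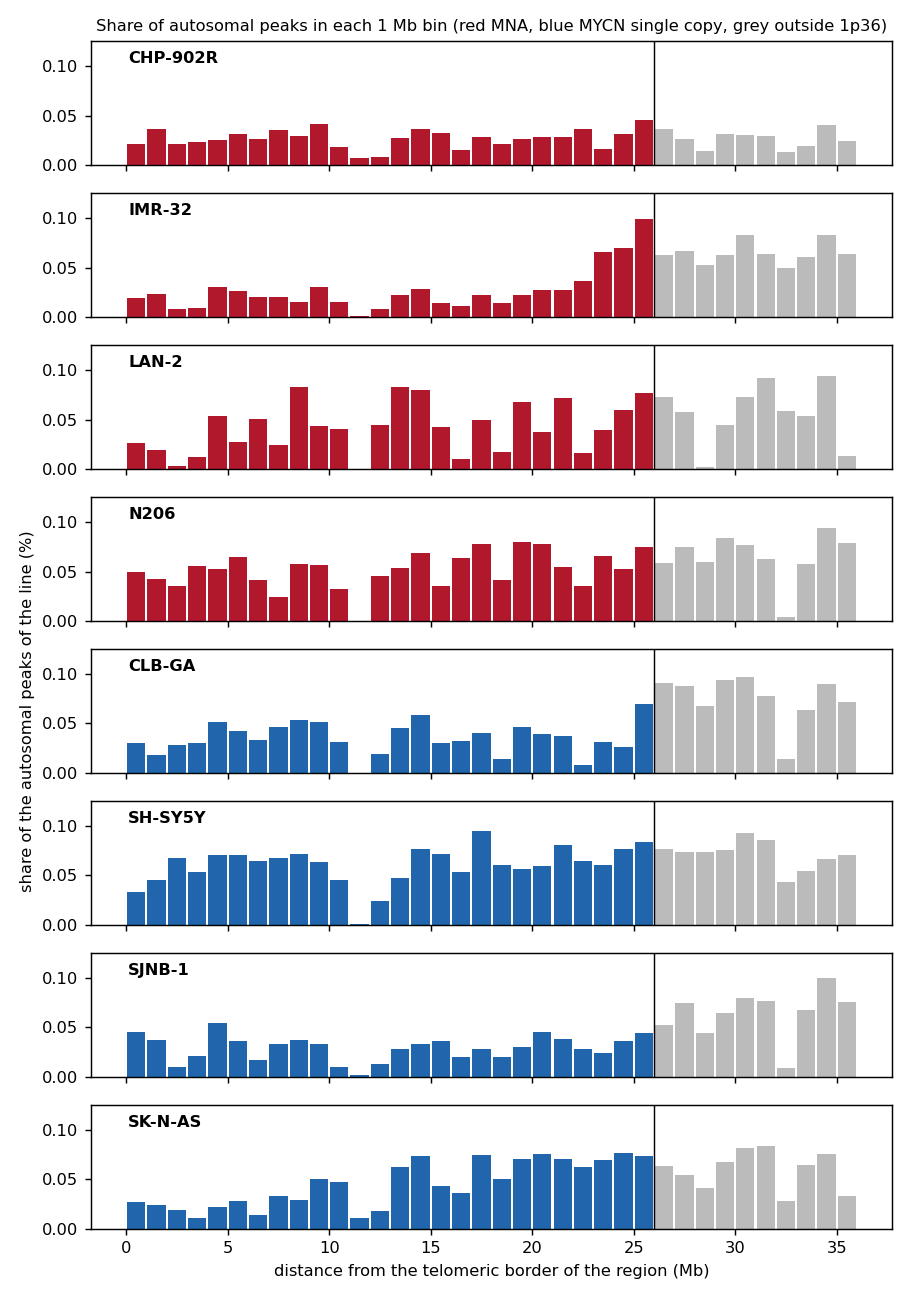
Share of the autosomal peaks of a line in each 1 Mb bin, in percent, against the distance from the telomeric border of the region in Mb; coloured bars lie in 1p36 (red MNA, blue MYCN single copy) and grey bars in the 10 Mb beyond it. IMR-32 is low up to 23 Mb, SK-N-AS up to 9 Mb, and CHP-902R on both sides of the border.

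Bin by bin, no bin of the region separated the *MYCN* groups. None of the 26 bins of 1 Mb had all MNA lines above all single copy lines, or the reverse, where 1.22% and 0.854% of the autosomal bins were. At such low autosomal shares, few or none of 26 bins would be expected to separate the groups, so finding none does not set the region apart. No bin had an exact permutation p below 0.05, and the lowest adjusted p was 0.982. The smallest p that this test can give is 0.0286. A bin that reached it could not pass the adjustment over 2694 autosomal bins unless very many others reached it too. The adjusted p-values therefore cannot decide whether a given bin differs. The bin from 13 to 14 Mb had few peaks in all lines, with 0 peaks in LAN-2, N206 and CLB-GA, 1 each in IMR-32, SH-SY5Y and SJNB-1, 7 in CHP-902R and 9 in SK-N-AS. It holds much of the PRAME gene family, named after an antigen recognized in melanoma, whose members are near copies of each other. In this bin 29.5% of the bases start a 45 bp window that occurs only once in GRCh37, against 88.9% over the region (the part of this in the low count was not tested). None of the 31 genes of the family had a promoter peak in any line, and the median over their canonical promoter windows was 5.20% such bases. The longest stretch without a peak fell here in each line, from 0.849 Mb in SK-N-AS to 1.37 Mb in SJNB-1.

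A second long gap lay in sequence that is mostly found once. LAN-2 and CLB-GA had no peak over the 0.668 Mb of chr1:24299551-24967600, a stretch in which 85.2% of the bases start a window found once and which has 1.44 CpG per 100 bp. In the same stretch CHP-902R had 25 peaks, IMR-32 13, N206 14, SJNB-1 14, SH-SY5Y 33 and SK-N-AS 37. It holds 8 protein-coding genes in full, *MYOM3*, *IL22RA1*, *IFNLR1*, *GRHL3*, *STPG1*, *NIPAL3*, *RCAN3* and *NCMAP*. Among them, *IL22RA1* and *IFNLR1* encode chains of different cytokine receptors, and *GRHL3* an epidermal transcription factor. LAN-2 also had single bins far below its neighbours, with 3 peaks from 4 to 5 Mb and 11 from 18 to 19 Mb, beside 91 from 10 to 11 Mb and from 15 to 16 Mb.

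By place, introns were the largest class in every line. Introns outside promoter windows held 35.8% (IMR-32) to 52.2% (LAN-2) of the peaks, exons outside promoter windows 10.9% (N206) to 19.5% (SJNB-1), and sequence outside genes 11.6% (LAN-2) to 25.8% (SK-N-AS). A promoter window, which runs from 1500 bp before to 1000 bp after an annotated transcription start site (TSS), was overlapped by 20.5% (SK-N-AS) to 26.6% (IMR-32) of the peaks. In the rest of chromosome 1 it was 15.1% to 19.2%, and the region was higher in 8 of 8 lines, by 5.10 ± 2.12 percentage points (SD, n = 8; exact sign-flip permutation p = 0.00781, adjusted 0.0125). Genes are also denser in 1p36, with 845 in 25.6 Mb against 5026 in the 200 Mb of the rest, and the part of this in the difference was not tested.

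Counted from the genes, the region had fewer promoters with a peak. Of its 340 protein-coding genes, 19.7% (SJNB-1) to 42.4% (SH-SY5Y) had a peak within reach of any of their TSS, against 31.3% (CHP-902R) to 51.1% (LAN-2) in the rest of chromosome 1. The region was lower in 7 of 8 lines, with a mean difference of -8.85 ± 6.74 percentage points (SD, n = 8; exact sign-flip permutation p = 0.0156, adjusted 0.0208), and SH-SY5Y was the exception with 42.4% against 41.0%. Against the rest of the short arm the difference was -7.89 percentage points and did not pass (exact permutation p = 0.0547). A protein-coding gene of the region has 6.25 TSS on average, many of them inside the gene. At the canonical TSS alone, promoters with 5 or more CpG per 100 bp had a peak in 6.38% (CHP-902R and SJNB-1) to 20.6% (SH-SY5Y) of 141 genes of the region, and in 14.3% to 29.9% of 489 genes of the rest of chromosome 1. Promoters with 2 to 5 CpG per 100 bp had a peak in 9.73% (SJNB-1) to 23.9% (IMR-32 and LAN-2) of 113 genes of the region, and in 16.5% to 31.4% of 733 genes of the rest. For promoters with fewer than 2 CpG per 100 bp it was 2.33% (SK-N-AS) to 10.5% (SH-SY5Y) of 86 genes, and 9.06% to 20.6% of 530 genes of the rest. In each line the region was lower in each of the 3 classes. The region also holds the 31 genes of the PRAME family, none with a promoter peak in any line. In their canonical windows a median of 5.20% of the bases start a 45 bp window found once. The part of this family in the lower shares was not tested.

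The lines shared little of the region. Overlapping peaks of the 8 lists were merged into 4465 regions in 1p36. Only 1 line had a peak in 2939 of them (65.8%), against 48.8% in the rest of chromosome 1 and 55.9% over the autosomes. A peak in at least 4 lines was found in 6.74% of the regions, against 16.5% in the rest of the chromosome. The share of the regions of a line that no other line had was 36.2% (IMR-32) to 42.9% (N206 and SH-SY5Y) in 1p36 and 16.6% to 29.3% in the rest of chromosome 1. For each of the 28 pairs of lines the bases under peaks of both were divided by those under peaks of at least 1 of them (the Jaccard index). Its median was 0.0862 in 1p36 and 0.166 in the rest of the chromosome, and 28 of 28 pairs were lower in 1p36. Pairs share lines, so these values are a description, and the part of the lower number of peaks per CpG in them was not tested.

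**Figure D4:**
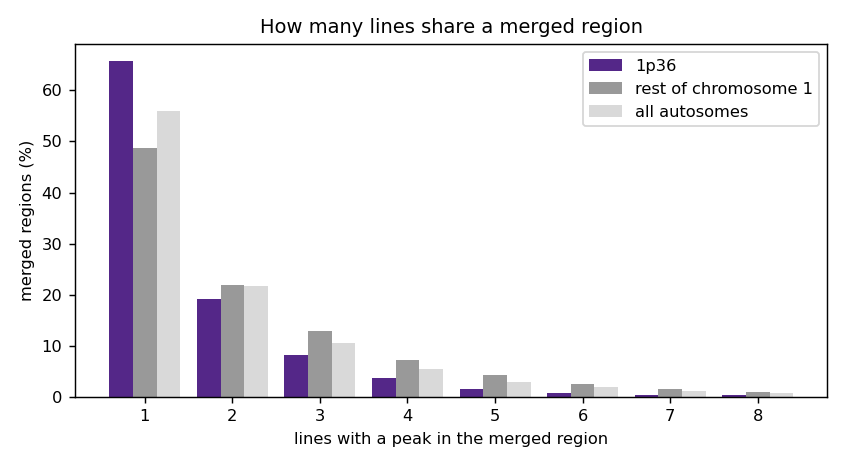
Percent of the merged regions of 1p36, of the rest of chromosome 1 and of all autosomes by the number of lines with a peak in them. In 1p36 65.8% were found in 1 line and 0.269% in all 8.

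In 1p36, 12 regions (0.269%) had a peak in all 8 lines, where the share over the autosomes was 0.649%. Ordered by the length common to all lines, the first 5 were in an intron of *EPHA8*, in an exon of *TENT5B*, outside genes at chr1:17053638-17055451, in an exon of *GPR3* and at *CROCCP2* and *MST1P2*. *EPHA8* encodes an ephrin receptor that guides axons, and its shared region was common to all lines over 619 bp. The 300 bases with most CpGs in this common stretch are low-complexity sequence, made of short units repeated with small changes. Among the MNA lines, the *EPHA8* region scored 250 in LAN-2, 208 in N206, 131 in CHP-902R and 118 in IMR-32. Among the single copy lines, it scored 289 in SH-SY5Y, 195 in SJNB-1, 87.0 in SK-N-AS and 78.0 in CLB-GA. Scores of different lists are not comparable. Within the list of SJNB-1 it was the highest of 1p36. The shared region lies inside the gene, and no line had a peak in an *EPHA8* promoter window. The region of *TENT5B*, a member of the family of non-canonical nucleotidyltransferases, lay at chr1:27332117-27333572 and had 6.76 CpG per 100 bp over the 592 bp in common. Its scores were 72.4 (SJNB-1) to 172 (SH-SY5Y), and on average 89.1% of the peaks of a line scored lower. In *GPR3*, a G protein-coupled receptor that keeps cAMP high, the common 391 bp had 4.09 CpG per 100 bp.

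Some of these 12 regions lie in copied sequence. Of the common 378 bp at the pseudogenes *CROCCP2* and *MST1P2*, 41.3% of the bases start a window found once, and for *AKR7L*, an aldo-keto reductase gene, 26.8% of the 190 bp in common do. *AKR7L* was the only protein-coding gene of the region with a peak at its canonical TSS in all 8 lines (2 of the 845 genes of any type had this, 0.237%, against 0.965% of the autosomal genes), and the common stretch had 12.6 CpG per 100 bp. The region at *CROCC* and *MST1L* had 33.8% such bases. The remaining shared regions lay outside genes at chr1:2812996-2814500, chr1:9513311-9514100 and chr1:20779984-20781759, in an intron of *MEGF6*, which encodes a protein with EGF-like repeats, and at *DISP3*, which encodes a patched-related membrane protein. At *DISP3* and at *CROCC* and *MST1L* the peaks of the lines join into 1 region, but no base was covered in all 8 lines. The one at chr1:2812996-2814500 had the highest score of 1p36 in N206, 607, and 56.1 (CLB-GA) to 178 (SH-SY5Y) in the other lines. The CpG-richest 300 common bases there, at chr1:9513311-9514100 and in *MEGF6* are runs of short repeated units, as in *EPHA8*. The measure of windows found once does not mark such repeats, as 96.7% of the common bases in *MEGF6* and 100% in the others passed it.

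The strongest peak of the region differed from line to line. In CHP-902R it lay at an exon of *MMEL1*, a membrane metallopeptidase, with a score of 258, and in IMR-32 in *AHDC1*, which encodes an AT-hook protein, with 170. In LAN-2 it was the shared region at chr1:9513311-9514100, with 359. In CLB-GA it lay at an exon of *FGR*, a SRC family kinase, with 201, and in SH-SY5Y in an intron of *RERE*, a nuclear receptor corepressor, with 340. In SK-N-AS it was the shared region at chr1:20779984-20781759, with 306. Each of these stood above at least 98.2% of the peaks of its list.

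Few regions followed *MYCN* status. A peak in all 4 MNA lines and no single copy line was found in 1 of the 4465 regions (0.0224%), against 0.121% over the autosomes. The reverse was found in 1 (0.0224%), against 0.0394%. The first, chr1:6924346-6925102, lies in an intron of *CAMTA1*, a calmodulin-binding transcription activator and a candidate suppressor of NB, and its scores were 88.4 in N206, 70.4 in CHP-902R, 60.9 in IMR-32 and 57.8 in LAN-2. The second, chr1:21584848-21585660, overlaps an exon of *ECE1*, the endothelin-converting enzyme, with scores of 50.1 in SJNB-1, 53.9 in CLB-GA, 54.5 in SH-SY5Y and 81.7 in SK-N-AS. On average 43.2% of the peaks of a line scored lower than the *CAMTA1* peak and 23.6% lower than the *ECE1* peak. All 8 scores were below 100, and at that minimum score, or with lists of equal length, no such region was left. With all 8 lines, 2 regions separated the groups. With 1 line left out there were 12 without CHP-902R, 19 without IMR-32, 3 without LAN-2 and 6 without N206. There were 10 without CLB-GA, 3 without SH-SY5Y, 8 without SK-N-AS and 7 without SJNB-1. Leaving out a line loosens the rule, so these counts can rise for that reason alone. The autosomal share under the looser rule is not given here.

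Among genes, 1 of 845 in the region separated the groups by its promoter windows. *CASZ1*, a zinc finger gene and candidate suppressor, had a peak in all 4 single copy lines and in no MNA line, where 0.0523% of the autosomal genes had this pattern and 0.152% the reverse. The 4 lines did not share a place, however. The peak of CLB-GA was at chr1:10699511-10700087, that of SK-N-AS at chr1:10721702-10723242 and that of SH-SY5Y at chr1:10764584-10765723, and those of SJNB-1 followed from 10765736. All lie at TSS inside the gene, at least 89727 bp from the canonical one, and the call is lost when only canonical TSS are used, as no line had a peak there. With score 100 or more no gene separated the groups.

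A peak in some promoter window in all 8 lines was found for 9 of the 845 genes (1.07%), against 2.86% of the autosomal genes. Among them were *KCNAB2*, *NBPF1*, *UBR4*, *AKR7L*, *EPHB2* and *ARID1A*, and of these 6 *AKR7L* alone had this at its canonical TSS. In *UBR4*, a ubiquitin ligase, 7 lines, all but IMR-32, had a peak that overlapped that of SH-SY5Y at chr1:19438783-19439421, inside the gene. *KCNAB2*, a potassium channel subunit, has 44 annotated TSS and *ARID1A*, a subunit of the SWI/SNF chromatin remodeler, 16.

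At canonical TSS, peaks were found in 6 or more lines in 4 protein-coding genes, of which *TCEA3* was named after its values were seen. *PRDM2*, a histone methyltransferase gene also called RIZ, had a peak within its canonical window in 7 lines, all but CHP-902R. Its scores were 247 in LAN-2, 178 in N206, 118 in SJNB-1, 96.0 in CLB-GA, 70.5 in SK-N-AS, 65.8 in SH-SY5Y and 56.3 in IMR-32. The *PRDM2* peaks of SJNB-1, at chr1:14025069-14025546, and of SK-N-AS, at chr1:14025751-14026357, did not overlap. No base was thus covered in all 7 lines. *SFN*, which encodes 14-3-3 sigma, a target of p53 that arrests the cell cycle, had one in CHP-902R (71.2), IMR-32 (81.9), LAN-2 (117), N206 (139), SH-SY5Y (131) and SK-N-AS (109), and in neither CLB-GA nor SJNB-1. The window of 300 bases given above, with its 20 CpGs, lies inside the *SFN* stretch common to these 6 lines, chr1:27189770-27190344. That stretch starts 130 bp past the canonical TSS at 27189640. *TCEA3*, a transcription elongation factor, had peaks in 6 lines, all but IMR-32 and SJNB-1, and *AKR7L* was named above. The *TCEA3* peaks of N206 and SK-N-AS lay 941 and 901 bp from the canonical TSS and overlapped none of the other lines' peaks. For *NR0B2*, an orphan nuclear receptor that represses bile acid synthesis, the 4 MNA lines and CLB-GA had a peak across the TSS, with scores of 152 in LAN-2, 102 in CHP-902R, 91.3 in CLB-GA, 73.5 in N206 and 51.9 in IMR-32.

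Of 20 candidate suppressors of 1p36, all had a peak at some TSS in at least 1 line, 12 at the canonical TSS, and 3 there in at least 4 lines (*PRDM2*, *ERRFI1* and *SFN*). *CHD5* had peaks in 7 lines, all at TSS inside the gene and none at the canonical one, *RUNX3* in IMR-32 and N206, and *TP73*, at its canonical TSS, in SH-SY5Y only. At the start of the *MIR34A* hairpin SH-SY5Y alone had a peak, and at the canonical TSS of its host transcript *MIR34AHG*, at 9242451 with 7.64 CpG per 100 bp around it, CHP-902R alone. Over all 340 protein-coding genes of the region, 244 (71.8%) had a peak at some TSS in at least 1 line, 163 (47.9%) at the canonical TSS, and 23 there in at least 4 lines.

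Transcription factors of the region had peaks in 13 of 21 genes at the canonical TSS (61.9%). *ZBTB40* had one in 5 lines and *SKI*, a TGF-beta corepressor, in LAN-2, N206 and SH-SY5Y. Of the HES family genes, *HES2* had one in SH-SY5Y, *HES3* in IMR-32, and *HES5* in no line, like *ID3* and *ZNF436*. *PAX7*, a muscle and neural crest regulator, had one in SH-SY5Y. Chromatin regulators had a peak in 3 of 8 genes at the canonical TSS (37.5%): *PRDM2*, *HMGN2* in SH-SY5Y and *HP1BP3* in N206. For *ARID1A*, *CHD5*, *KDM1A*, *RERE* and *PRDM16* no line had one there, although each had a peak at another TSS in at least 1 line.

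Of the 15 neuronal genes that fall in the region, 14 had a peak at some TSS and 7 at the canonical one (46.7%), and the lines named here are those with a peak at the canonical TSS. The serotonin receptor gene *HTR6* had one in CHP-902R (107), N206 (201), CLB-GA (80.1), SH-SY5Y (110) and SK-N-AS (72.3), and *HTR1D* in IMR-32, N206 and SK-N-AS. The *HTR6* peak of SK-N-AS, at chr1:19990097-19991012 with 1.97 CpG per 100 bp, overlapped none of the others, which began at 19991849 or later. *STMN1*, which destabilizes microtubules in growing neurites, had one in IMR-32 and SH-SY5Y. Of 5 genes of the TNF receptor superfamily, all had a peak at some TSS and 3 at the canonical one, *TNFRSF9* and *TNFRSF8* in IMR-32 and *TNFRSF1B* in SH-SY5Y, each in 1 line. Of 6 secreted phospholipases A2, 4 had a peak at some TSS and 2 at the canonical one, *PLA2G2E* in SH-SY5Y and SJNB-1 and *PLA2G2A* in SJNB-1. Of 5 peptidylarginine deiminases, 4 had a peak at some TSS and 3 at the canonical one, *PADI1* in SH-SY5Y, *PADI3* in SK-N-AS and *PADI6* in CHP-902R and SH-SY5Y. None of these lists had a gene whose canonical promoter separated the *MYCN* groups.

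**Figure D5:**
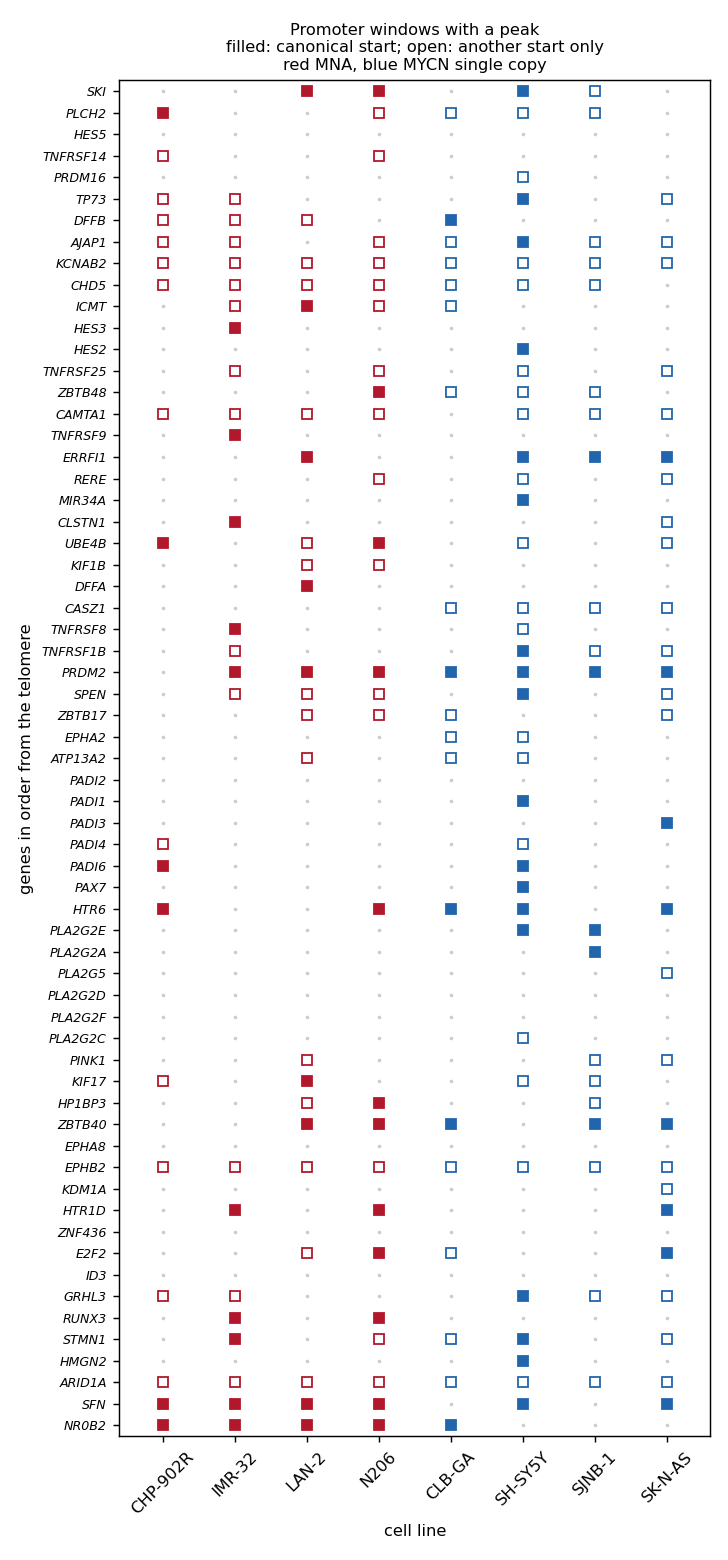
Promoter windows with a peak for the listed genes of 1p36 without the PRAME family (rows, from the telomere) in each cell line (columns; red MNA, blue MYCN single copy). Filled squares mark a peak at the canonical start, open squares a peak at another start only, and no row is filled in the 4 lines of 1 group alone.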

How the data were processed

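Methylated DNA of 8 cell lines had been captured by MBD and sequenced, with 1 peak list per line. The authors mapped the reads to GRCh37 with Bowtie 0.12.7 and called peaks in each line with MACS, as the submitters' processing notes and the study's methods state. The deposited lists give the position and score of each peak. The score deposited by the authors is the MACS value, -10 times log10 of the p-value, with a lowest value of 50 (p of 1e-05). It depends on depth, which the lists do not give, so scores were compared only within a list and no counting interval can be given.

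A peak belonged to 1p36 by its midpoint. CpGs and bases other than N were counted in GRCh37, promoter windows ran from 1500 bp before to 1000 bp after each TSS of GENCODE release 44 on GRCh37, and peaks that overlapped by at least 1 bp were merged into regions. Bases were called unique where the 45 bp window that starts there occurs once in the genome. The region was compared with the rest of chromosome 1 within each line by a two-sided exact sign-flip permutation test over 256 sign patterns, and the *MYCN* groups by a two-sided exact permutation test over 70 assignments. P-values were adjusted by Benjamini-Hochberg over the 8 paired and the 4 group tests, and for the 1 Mb bins over the bins tested on all autosomes. Groups follow the labels. The lines are 1 sample each, so p-values measure the spread between lines. The scripts (Python 3.11.15, numpy 2.4.6, scipy 1.17.1, numba 0.67.0, matplotlib 3.10.9) were tested on simulated peaks. Genes were named if they belong to a fixed list, had a promoter peak in all 8 lines, separated the groups, lie at the widest regions shared by all lines or overlap the strongest 1p36 peak of a line. The region, its members and the gene lists were chosen with earlier results of these data known. Alternatives were a score of at least 100, lists of 70816 peaks each, other borders, promoter windows and comparison sequence, and leaving out each line. Some items that these rules select are not reported here.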

Additional observations from a re-analysis of the deposited data

Results flagged for a closer look

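Each measure of 1p36 was checked in each *MYCN* group for a line that stands apart from the other 3, by the gap to its nearest neighbour over the whole range of the group. Of 22 groups of lines checked, 1 was above the 95% critical value for 4 samples. In the single copy lines the median peak of SJNB-1 exceeded that of the rest of chromosome 1 by 0.612 CpG per 100 bp, against 0.195 to 0.260 in CLB-GA, SK-N-AS and SH-SY5Y, a ratio of 0.843. Chance marks about 1 in 20 such groups, so 1 of 22 is no more than chance gives.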

How the results depend on the processing

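For 15 results, 230 values were computed under alternatives, and 189 kept their direction and their side of the threshold or, for counts, stayed within 1.5 times. Peaks per 1000 CpG kept both under all 17 alternatives. Where a result changed, the cause was not tested. Peaks per Mb (mean log2 ratio) passed with scores of at least 100 (-1.39), equal lists (-0.63), a border at 20 Mb (-0.59) and bins of like CpG, added after seeing the data (-0.70), and turned to 0.0551 against the rest of the autosomes. Leaving out 1 line gave -0.53 to -0.32. The -0.53 came without SH-SY5Y, the only line above 0, and its pass was fixed by that choice. Cover passed with scores of at least 100 (-1.14) and bins of like CpG (-0.83), and turned to 0.161 against the rest of the short arm and 0.118 against the autosomes. Width (27.8 bp, rest of the autosomes) and promoters with a peak (-7.89 percentage points, rest of the short arm) no longer passed.

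No group test passed under any alternative. The difference in peak share ran from -0.276 to 0.00546 percentage points when 1 line was left out, and that in cover share from -0.295 to 0.0656, both above 0 only without SH-SY5Y. The group difference in median CpG was -0.0189 with scores of at least 100, -0.0139 with equal lists, -0.0225 against the autosomes and -0.0277 to 0.111 with 1 line left out, below 0 without IMR-32, CLB-GA, SH-SY5Y or SK-N-AS.

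Regions that separate the groups numbered 0 with scores of at least 100, 0 with equal lists and 3 to 19 with 1 line left out. Leaving out a line loosens the rule for separating regions and genes, so their counts can rise for that reason alone. Regions in all 8 lines numbered 0 with scores of at least 100 and 2 when a peak had to cover 50% of the region. Genes that separate the groups numbered 0 with scores of at least 100, 2 with windows to +500 bp, 0 at canonical TSS, an alternative added after seeing the data, and 1 to 4 with 1 line left out. The 1p36 and rest of chromosome 1 values were paired within a line. MNA and single copy lines could not be paired with each other, because they are different lines and no label links them. Depth is unknown, so absence of a peak is not absence of methylation.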
